A study of Homo sapiens with 9 samples.

Results

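The genes described here encode secreted proteins of blood clotting, its inhibition and the lysis of clots. They are the genes of the fibrinogen chains (FGA, FGB and FGG), of the clotting factors prothrombin (F2), factor V (F5) and factor X (F10), of the anticoagulants protein C (PROC) and antithrombin (SERPINC1), and of plasminogen (PLG). The rule takes them by symbol, and all 9 were found among the 22587 genes of the deposited table. The test was run on 8 of the 9, because PLG was below the minimum level for it.

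HepG2 is a cell line derived long ago from a human hepatocellular tumor. In all, 9 HepG2 samples were sequenced, 3 with glutamine (Gln) added (normal medium), 3 deprived of Gln for 12 h and 3 deprived of Gln for 24 h, and the labels give no genetic change for any of them. All were grown in high-glucose DMEM with fetal bovine serum, and 24 h after seeding the medium of the deprivation experiment was exchanged for Gln-free DMEM. The labels give no harvest time for the normal-medium cultures. The treatment label of these cultures is GlutaMAX, a dipeptide that replaces Gln in culture, whereas the treatment protocol places GlutaMAX in the Gln-free medium, so which group received it cannot be told from the sources used here. Nothing states that the 3 samples of a group came from separate cultures, so the p-values below measure the spread between these samples, which may be technical. Values are FPKM (fragments per kilobase of gene, scaled by the fragments of the library), and the libraries held 29621270 to 36261546 fragments on genes.

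Fibrinogen is assembled in liver cells from pairs of an alpha, a beta and a gamma chain, encoded by FGA, FGB and FGG. In the clotting cascade, factor X with its cofactor, factor V, cleaves prothrombin to thrombin, which turns fibrinogen into fibrin. Antithrombin blocks thrombin and factor X, and activated protein C inactivates factor V. Plasminogen is the precursor of plasmin, the enzyme that dissolves fibrin. Hepatocytes are the main source of all of these proteins, and fibrinogen is also known as an acute-phase protein whose genes respond to interleukin 6.

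The fibrinogen genes lie next to each other on chromosome 4 of GRCh38 (GENCODE v44), within 49957 bases, with FGB on the plus strand from 154563011 to 154572807, FGA on the minus strand from 154583126 to 154590742 and FGG on the minus strand from 154604134 to 154612967. The 250 bases before the start site of these genes and of F2 are shown, as some of the members that changed against Gln added. F10, called lower at 12 h and 24 h, also has a promoter but is not shown. FGA, FGB and FGG were lower at 12 h and 24 h, while F2 was called only at 24 h, as higher. The sequences are RefSeq's on GRCh38.p14, 5′ to 3′ on the strand of the gene, at chr4:154590743-154590992 (FGA, minus strand), chr4:154562761-154563010 (FGB, plus strand), chr4:154612657-154612906 (FGG, minus strand) and chr11:46718963-46719212 (F2, plus strand). Capitals mark matches, on either strand, to CTGGGA (the interleukin 6 response motif, read as TCCCAG on the other strand).
FGA: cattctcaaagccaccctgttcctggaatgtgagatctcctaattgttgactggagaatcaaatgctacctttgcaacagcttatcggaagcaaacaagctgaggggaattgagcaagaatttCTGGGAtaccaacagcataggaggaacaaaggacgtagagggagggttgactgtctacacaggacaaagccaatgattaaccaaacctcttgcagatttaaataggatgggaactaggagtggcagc
FGB: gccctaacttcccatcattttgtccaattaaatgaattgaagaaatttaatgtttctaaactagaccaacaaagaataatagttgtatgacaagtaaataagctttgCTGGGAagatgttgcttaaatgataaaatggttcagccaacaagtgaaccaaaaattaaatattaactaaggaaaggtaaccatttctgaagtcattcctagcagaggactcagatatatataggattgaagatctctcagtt
FGG: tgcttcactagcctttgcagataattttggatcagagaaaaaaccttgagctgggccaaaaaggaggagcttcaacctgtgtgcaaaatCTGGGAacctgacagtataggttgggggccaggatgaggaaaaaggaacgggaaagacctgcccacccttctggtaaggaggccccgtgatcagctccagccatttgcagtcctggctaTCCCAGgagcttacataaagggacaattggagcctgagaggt
F2: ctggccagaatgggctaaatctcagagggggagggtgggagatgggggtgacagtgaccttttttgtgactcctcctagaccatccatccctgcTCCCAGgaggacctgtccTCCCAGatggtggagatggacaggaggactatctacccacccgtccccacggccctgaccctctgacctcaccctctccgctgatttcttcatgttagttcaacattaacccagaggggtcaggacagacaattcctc
The CTGGGA match lay 127 bases before the start of FGA and 143 before that of FGB, while FGG held CTGGGA at 161 and TCCCAG at 42 bases before its start. In F2, TCCCAG stood 156 and 138 bases before the start. No matches overlapped each other. A promoter was found for 8 of the 9 genes, and SERPINC1 had none in the table. Counted on either strand, as CTGGGA or TCCCAG, the motif was found in 7 of these 8 (not in PROC), and in 28.7% of 35116 promoters of the same length. Neither TATAAA (10.7% of all promoters) nor TGATGNAA, an element bound by C/EBP and ATF factors (3.14%), was found in the 8, on either strand. The motifs were chosen after the sequences had been seen, and a match of letters does not show that a factor binds there.

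The samples expressed the genes of hepatocytes. Of 7 markers of hepatocyte-like tumor cells (ALB, AFP, APOA1, APOB, TTR, TF and HNF4A), all 7 had a mean of at least 1 FPKM in each group, and their summed level was 6491 to 6605 FPKM per library with Gln added, and 5701 to 5749 (12 h) and 5430.45 to 5802 (24 h) after deprivation. Of the markers of endothelial cells, platelets and stromal cells that the table holds (3, 2 and 4 genes), 0 reached 1 FPKM in any group, and their summed levels stayed under 0.37, 0.14 and 0.78 FPKM per library. The stromal sum moved with the groups, from 0.11 to 0.18 FPKM in the presence of Gln up to 0.32 to 0.52 (12 h) and 0.60 to 0.77 (24 h), and came almost wholly from PDGFRB, while COL1A1, COL1A2 and DCN had at most 3 fragments in a library. Of 5 leukocyte markers, PTPRC and CD3E are not in the table used here. The others, LYZ, CD68 and CD14, summed to 769 to 789, 554 to 593 and 760.1 to 807 FPKM in the same order of groups. What part these differences have in the results below was not tested.

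Of the 9 genes, FGG had the highest FPKM and PLG the lowest. On the lengths behind the deposited FPKM the order in all 3 groups was FGG, FGA, F2, SERPINC1, FGB, PROC, F5, F10 and PLG, and the ranges of no neighboring pair overlapped within a group. The order depends on these lengths. On the length of the canonical transcripts FGA was above FGG in every group (830 against 595 FPKM with Gln added), and PROC was above FGB at 12 h (68.9 against 61.6) and at 24 h (68.0 against 57.9). With Gln added, mean levels ran from 585 FPKM ± 8.8 (SD, n = 3) for FGG through 156 ± 1.9 for F2 and 80.3 ± 1.2 for FGB down to 20.4 ± 0.42 for F10. PLG was at 0.069 FPKM ± 0.023. The fibrinogen chains together took 0.336% of all fragments with Gln added, and after deprivation 0.241% (12 h) and 0.254% (24 h), and all 9 genes took 0.424%, 0.333% and 0.348%.

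**Figure D1:**
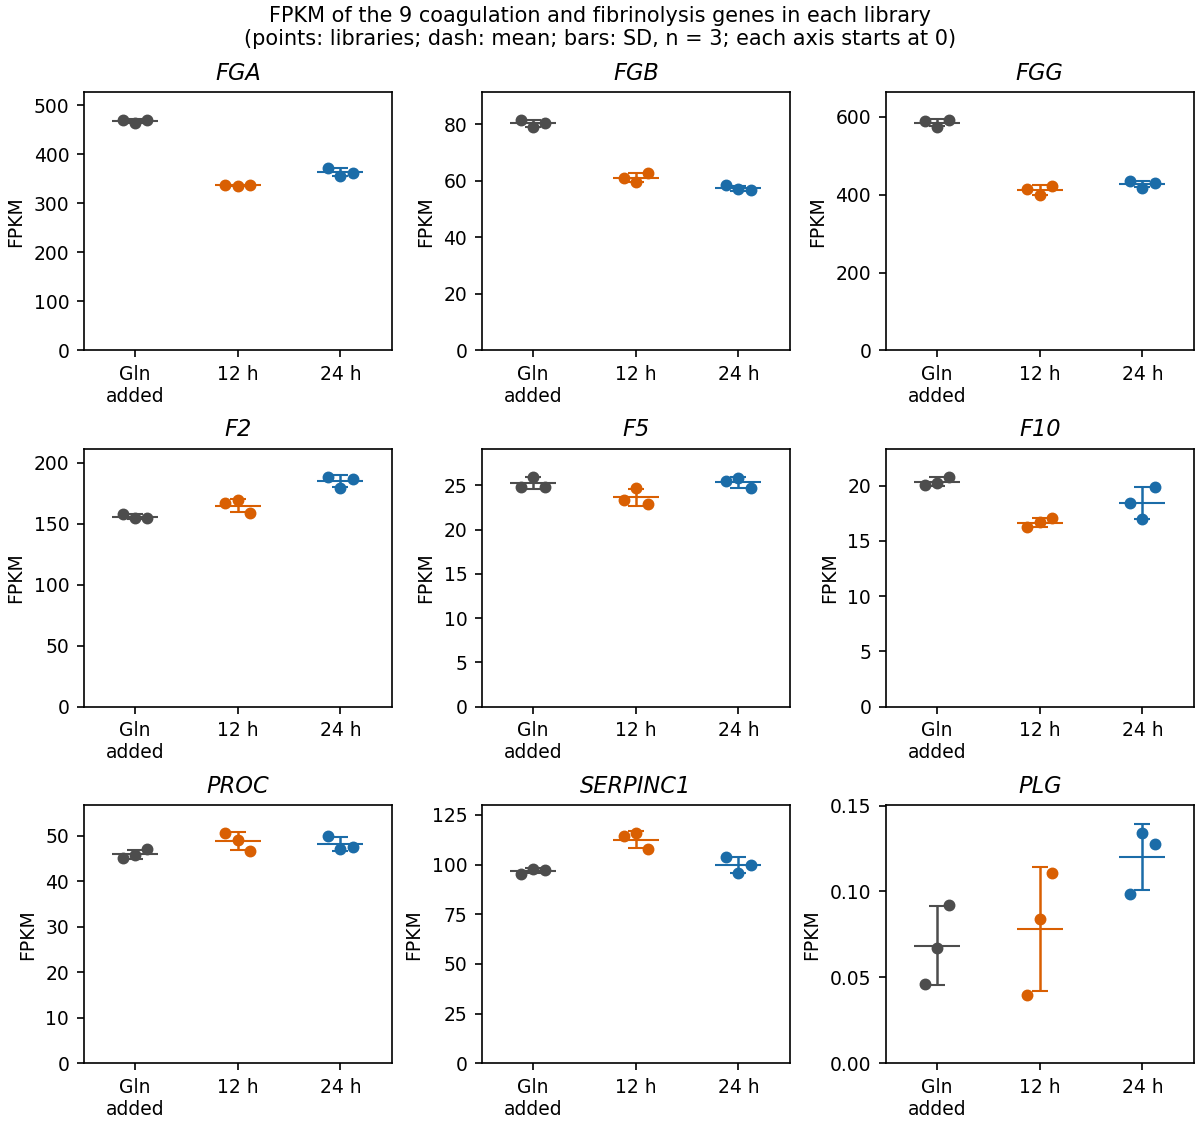
FPKM (y axis, linear, from 0) of each of the 9 genes in each library, by group (x axis). Points are libraries, dashes are group means and bars are SDs (n = 3). FGA, FGB and FGG were lower in all 6 Gln-deprived libraries than in all 3 libraries with Gln added, SERPINC1 was highest at 12 h, F2 was highest at 24 h, and PLG stayed under 0.14 FPKM.

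After 12 h of Gln deprivation, the mRNAs of all 3 fibrinogen chains and of factor X fell, and that of antithrombin rose. In mean FPKM, FGA fell by 28.0%, FGB fell by 24.0%, FGG fell by 29.6% and F10 fell by 18.2%. SERPINC1 rose by 16.2%. For F2, F5 and PROC no change passed the test at this time. In bulk RNA the level of an mRNA is a share of all mRNA, so fewer cells that express it and less of it per cell cannot be told apart.

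FGA had 470.0, 464.2 and 469.8 FPKM in the libraries with Gln added (replicates 1, 2 and 3), 336.9, 335.5 and 338.0 at 12 h and 371.8, 356.5 and 362.7 at 24 h. All Gln-deprived libraries were below all libraries with Gln added, and all 24 h libraries were above all 12 h libraries. FGB had 81.5, 79.0 and 80.5 FPKM with Gln added, 61.0, 59.5 and 62.7 at 12 h and 58.4, 57.1 and 56.7 at 24 h. Here too the deprived libraries were all below the others, and the 24 h libraries were the lowest. FGG had 588.5, 575.4 and 592.0 FPKM with Gln added, 415.3, 398.1 and 422.2 at 12 h and 434.2, 418.3 and 430.3 at 24 h. For FGG the 12 h and 24 h libraries overlapped, and both lay below those with Gln added.

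Fold changes were tested with limma on log2(FPKM + 0.1), with Benjamini-Hochberg adjustment over the 11880 genes that averaged 0.5 FPKM or more, and a gene was called at an adjusted p under 0.05. At 12 h the log2 fold change against Gln added was -0.47 for FGA (SE 0.029, adjusted p = 2.58e-07 from limma), -0.40 for FGB (SE 0.033, adjusted p = 2.61e-06 from limma) and -0.51 for FGG (SE 0.033, adjusted p = 4.58e-07 from limma). At 24 h, against the same libraries with Gln added, it was -0.36 for FGA (adjusted p = 1.34e-06 from limma), -0.48 for FGB (adjusted p = 3.90e-07 from limma) and -0.45 for FGG (adjusted p = 7.41e-07 from limma). The calls of the fibrinogen chains against Gln added held under all 19 alternatives (10 other settings of the processing, and each of the 9 libraries left out). Counted over the 8 genes tested, 1 was higher, 4 were lower and 3 were not called at 12 h, where 29.1% of all tested genes were called higher and 31.0% lower. At 24 h the counts were again 1, 4 and 3, where 33.0% of all tested genes were higher and 31.7% lower. The median log2 fold change of the 8 genes was -0.19 at 12 h and -0.07 at 24 h, that of all tested genes -0.02 and 0.01.

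**Figure D2:**
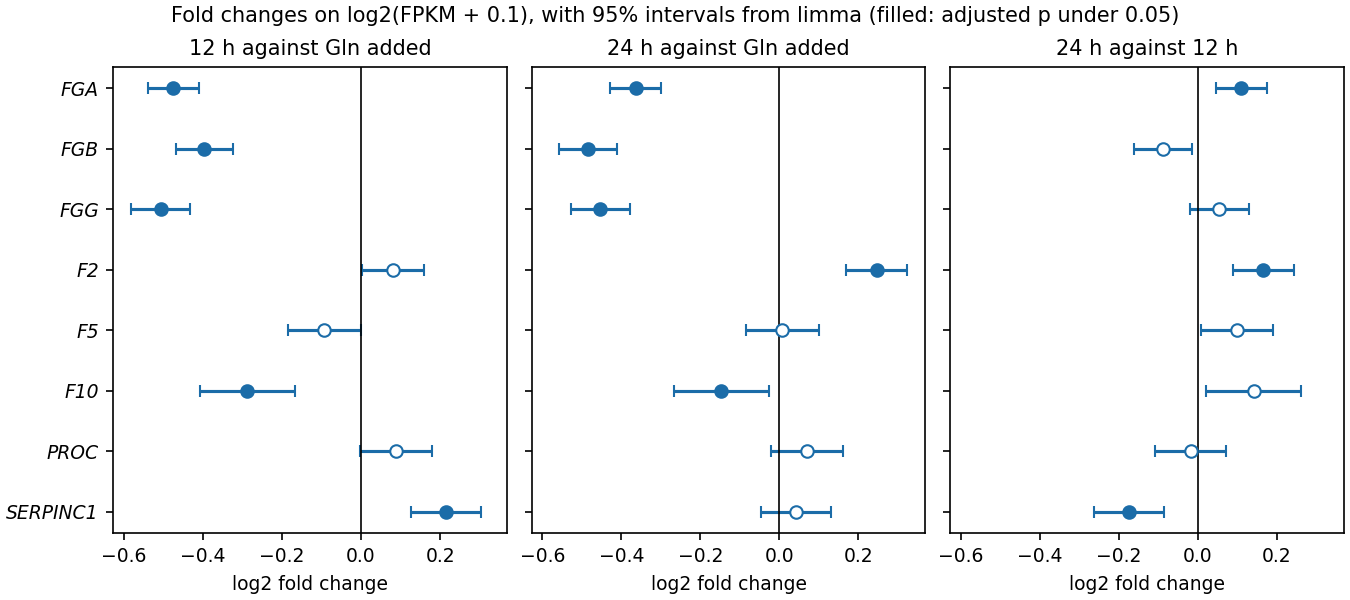
Log2 fold changes on log2(FPKM + 0.1) (x axis) of the 8 tested genes (y axis) in each of the 3 comparisons, with 95% intervals from limma. Filled points passed an adjusted p of 0.05. FGA, FGB and FGG lie between -0.36 and -0.51 against Gln added at both times, and the differences between 24 h and 12 h lie within 0.18 of 0.

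The ratios between the mRNAs of the chains separated the groups in 5 of 6 comparisons, in a design in which no p under 0.05 was possible. How often the ratios of other pairs of genes do so was not tested, so nothing particular to the chains is read from this count. Per length, as the deposited values count it, FGB was the least abundant chain in every library. The ratio of FGA to FGB was 5.77, 5.87 and 5.84 in the libraries with Gln added, 5.53, 5.64 and 5.39 at 12 h and 6.37, 6.24 and 6.39 at 24 h, so that none of the groups overlapped. The ratio of FGG to FGB was 7.22, 7.28 and 7.36 with Gln added, 6.81, 6.70 and 6.74 at 12 h and 7.44, 7.32 and 7.59 at 24 h. For this ratio the 12 h libraries were the lowest, and those at 24 h overlapped those with Gln added. On the log2 scale the FGA to FGB ratio differed from that with Gln added by -0.08 at 12 h and by 0.12 at 24 h (two-sided exact permutation test, p = 0.1 each, which is as low as 3 against 3 libraries can give, adjusted p = 0.12 over 6 comparisons), and the FGG to FGB ratio by -0.11 at 12 h (exact p = 0.1, adjusted p = 0.12) and by 0.03 at 24 h (exact p = 0.2, adjusted p = 0.2). Between 24 h and 12 h the differences were 0.20 for FGA to FGB and 0.14 for FGG to FGB (exact p = 0.1, adjusted p = 0.12 each). A ratio of 2 mRNAs within a library does not depend on the scaling between libraries, but its level depends on the lengths. The lengths behind the FPKM were 3917 bases for FGA, 3672 for FGB and 2107 for FGG, against 2209, 3641 and 2072 for the canonical transcripts, on which FGA with Gln added was 10.2 times and FGG 7.35 times as abundant as FGB.

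Prothrombin mRNA rose at 24 h. F2 (chromosome 11, 46719196 to 46739506, plus strand) had 158.1, 154.9 and 154.7 FPKM with Gln added, 166.7, 169.3 and 158.8 at 12 h and 188.8, 179.7 and 186.6 at 24 h. The 3 groups did not overlap, with the 24 h libraries the highest. Its log2 fold change of 0.08 at 12 h did not pass the test (95% interval 0.0034 to 0.16, adjusted p = 0.0673 from limma), and that of 0.25 at 24 h did (SE 0.035, adjusted p = 0.000105 from limma). From the earlier to the later time it rose by 0.17 (adjusted p = 0.00782 from limma). At 12 h F2 was called when FPKM were rescaled to the same total (0.11, adjusted p = 0.0111 from limma), with median-ratio scaling (0.10, adjusted p = 0.0411 from limma) and without the 12 h library of replicate 3 (0.11, adjusted p = 0.0217 from limma).

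Factor X, which converts prothrombin, went the other way. F10 (chromosome 13, 113122799 to 113149529, plus strand) had 20.01, 20.24 and 20.81 FPKM with Gln added, 16.2, 16.7 and 17.0 at 12 h and 18.4, 17.0 and 19.8 at 24 h. The deprived libraries were all below those with Gln added, while the 12 h and 24 h libraries overlapped. F10 fell by 0.29 on the log2 scale at 12 h (SE 0.054, adjusted p = 0.000921 from limma), under all 19 alternatives. At 24 h it fell by 0.15 (adjusted p = 0.0342 from limma), a call that 10 of the 19 alternatives ended (adjusted p from 0.00634 to 0.131 over all 19). It was lost without replicate 1, 2 or 3 with Gln added (log2 fold changes of -0.16, -0.15 and -0.13) and without replicate 1 or 2 at 24 h (-0.15 and -0.09). The call also ended with FPKM rescaled to the same total, with only the groups compared in the fit and with voom on recovered fragments. It ended too without a filter or without a trend. The difference between 24 h and 12 h was 0.14 (95% interval 0.021 to 0.26, adjusted p = 0.0931 from limma), and 0.20 without replicate 2 at 24 h (adjusted p = 0.0203 from limma). F10 rested on the fewest fragments of the 8 tested genes, 738 to 1137 per library. Opposite-strand exons of another gene overlap 4.13% of its exonic bases, and whether counting used strand is not given in the sources used here.

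For factor V, the cofactor of factor X, no change passed the test. F5 (chromosome 1, 169511951 to 169586588, minus strand) had 24.78, 25.99 and 24.85 FPKM with Gln added, 23.3, 24.7 and 22.9 at 12 h and 25.5, 25.8 and 24.7 at 24 h. The 12 h libraries were all just below those with Gln added, and the 24 h libraries overlapped both other groups. The log2 fold change at 12 h was -0.09 (95% interval -0.18 to -0.00049, adjusted p = 0.0763 from limma), and that at 24 h was 0.01 (95% interval -0.085 to 0.099, adjusted p = 0.892 from limma). At 12 h it passed with a replicate block (-0.09, adjusted p = 0.0378 from limma) and without replicate 2 at 12 h (-0.12, adjusted p = 0.0325 from limma).

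Antithrombin, the main plasma inhibitor of thrombin, had more mRNA at 12 h than in both other groups. SERPINC1 (chromosome 1, 173903800 to 173917327, minus strand) had 95.5, 97.9 and 97.3 FPKM with Gln added, 114.2, 115.9 and 107.7 at 12 h and 103.7, 95.9 and 99.6 at 24 h. The 12 h libraries were above all the others, and those at 24 h overlapped those with Gln added. It rose by 0.22 on the log2 scale at 12 h (SE 0.040, adjusted p = 0.000823 from limma). At 24 h it was lower than at 12 h, by -0.18 on the log2 scale (adjusted p = 0.0118 from limma), and both calls held under all 19 alternatives. The difference between 24 h and Gln added was 0.04 (95% interval -0.048 to 0.13, adjusted p = 0.390 from limma).

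For protein C, the other anticoagulant, no change passed the test. PROC (chromosome 2, 127418427 to 127429242, plus strand) had 45.0, 45.7 and 47.0 FPKM with Gln added, 50.6, 49.2 and 46.7 at 12 h and 50.05, 47.15 and 47.5 at 24 h. The 12 h libraries overlapped those with Gln added, and the 24 h libraries lay just above them. The log2 fold change at 12 h was 0.09 (95% interval -0.0022 to 0.18, adjusted p = 0.0839 from limma), and that at 24 h was 0.07 (95% interval -0.021 to 0.16, adjusted p = 0.156 from limma). Rescaled to equal total FPKM it passed at 12 h and at 24 h (0.12 each, adjusted p = 0.0167 and 0.0182 from limma), and without replicate 3 at 12 h it passed at 12 h (0.12, adjusted p = 0.0285 from limma).

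Plasminogen mRNA was at 5 to 19 fragments per library. PLG (chromosome 6, 160702194 to 160754097, plus strand) had 0.046, 0.067 and 0.092 FPKM with Gln added, 0.040, 0.084 and 0.11 at 12 h and 0.098, 0.13 and 0.13 at 24 h. The 24 h libraries were all above those with Gln added and overlapped those at 12 h. These values rest on 31, 35 and 53 fragments over the 3 libraries of each group (exact Poisson 95% intervals 21.06 to 44.002, 24.4 to 48.7 and 39.7 to 69.3, which cover counting error only). Without a minimum level in the fit, the log2 fold change was 0.07 at 12 h (adjusted p = 0.831 from limma) and 0.39 at 24 h (adjusted p = 0.122 from limma). The pseudocount of 0.1 is above the level of PLG with Gln added, so these fitted values understate its differences, and the mean FPKM at 24 h was 1.75 times that with Gln added. PLG shares long stretches with near-identical copies elsewhere in the genome, so its few fragments are of uncertain origin.

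Between 12 h and 24 h, prothrombin and FGA increased and antithrombin decreased. Of the 8 genes, 2 were higher and 1 lower at 24 h than at 12 h, where 9.57% of all tested genes were higher and 10.5% lower (1137 and 1249 genes, or 847 and 1692 with median-ratio scaling). The increase of FGA was 0.11 on the log2 scale (SE 0.029, adjusted p = 0.0229 from limma), and 7 of the 19 alternatives ended this call (adjusted p from 0.0105 to 0.118 over all 19). It was lost without replicate 1 at 12 h (0.11), replicate 2 at 12 h (0.11) or replicate 3 at 24 h (0.11), and with median-ratio scaling (0.07). It was also lost without a filter, with only the groups compared in the fit and without a trend. For FGB the difference was -0.09 (95% interval -0.16 to -0.015, adjusted p = 0.0862 from limma), and for FGG 0.05 (95% interval -0.020 to 0.13, adjusted p = 0.288 from limma). F5 had a difference of 0.10 (95% interval 0.0075 to 0.19, adjusted p = 0.120 from limma) and PROC one of -0.02 (95% interval -0.11 to 0.072, adjusted p = 0.792 from limma). The calls of F2 and SERPINC1 held under all 19 alternatives.

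Around these genes, SERPINE2 and A2M were among the genes of clotting and fibrinolysis that rose, and CPB2 and SERPINA10 among those that fell. From 5 lists of other genes of clotting and fibrinolysis, 37 of 38 were in the table and 27 were tested. Of these 27, 9 were higher and 9 lower at 12 h, 12 higher and 8 lower at 24 h, and 7 higher and 3 lower at 24 h than at 12 h. These counts stand beside 29.1% higher and 31.0% lower of all tested genes at 12 h, 33.0% and 31.7% at 24 h, and 9.57% and 10.5% between the times, and nothing particular to these lists is read from them. The last count of 10 genes became 6 without replicate 3 at 24 h, and that of 3 lower genes became 1 without it or without replicate 1 at 12 h. Their median log2 fold changes were 0.04 (12 h) and 0.15 (24 h), beside -0.02 and 0.01 over all tested genes.

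In fibrinolysis, 3 of 9 tested genes were higher at each time, and 5 were lower at 12 h and 4 at 24 h. The shares over all tested genes were 29.1% higher and 31.0% lower at 12 h, and 33.0% and 31.7% at 24 h. SERPINE2, a serine protease inhibitor that blocks thrombin and plasminogen activators, rose by 1.06 after 12 h and 1.498 after 24 h on the log2 scale, from 3.23 FPKM ± 0.22 (SD, n = 3) to 6.83 ± 0.35 and 9.30 ± 0.32 (adjusted p = 2.23e-07 and 1.08e-08 from limma). A2M, a broad protease inhibitor of plasma that also traps plasmin, rose by 0.29 and 0.85, from 547.5 FPKM ± 5.3 to 667.5 ± 17 and 989 ± 24. CPB2 encodes the carboxypeptidase that, once activated by thrombin, protects fibrin from lysis. It fell from 27.8 FPKM ± 0.59 to 13.2 ± 0.41 and 9.94 ± 0.29, log2 fold changes of -1.07 and -1.48 (adjusted p = 9.97e-09 and 6.98e-10 from limma). SERPINF2, the direct inhibitor of plasmin, also fell (log2 fold changes of -0.32 and -0.50 at the 2 times), and so did S100A10, a subunit of a plasminogen receptor at the cell surface (-0.53 and -0.72). Inhibitors of fibrinolysis stood both among the genes that rose and among those that fell. The other 2 lower genes at 12 h were ANXA2, the partner of S100A10, and PLAUR, the urokinase receptor, and ANXA2 was also the other one at 24 h, names given after their values were seen.

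The counts in this paragraph stand beside 29.1% higher and 31.0% lower of all tested genes at 12 h, and 33.0% and 31.7% at 24 h. Of 4 tested genes on the list of other common, extrinsic and intrinsic clotting factors, 3 were higher and 1 lower at each time. They were F3 (tissue factor), F7 and F11, with log2 fold changes of 0.28, 0.64 and 0.19 at 12 h and 0.36, 0.77 and 0.21 at 24 h, and F12, with -0.37 and -0.42, all named after their values were seen. F8, F9, VWF, KLKB1 and KNG1 were below the minimum level. F13B, on the list of fibrinogen and fibrin crosslinking, was tested and not called at either time (log2 fold changes of 0.25 and 0.13). Of 6 tested anticoagulants, 1 was lower at both times, SERPINA10, a cofactor-dependent inhibitor of factor X (9.51 FPKM ± 0.30 in the presence of Gln, then 5.99 ± 0.044 and 6.32 ± 0.41, log2 fold changes of -0.66 and -0.58). None of the anticoagulants was higher at 12 h and 3 were at 24 h (PROS1, the cofactor of protein C, by 0.15, SERPINA5 by 0.23 and TFPI by 0.21, named after their values were seen). The fibrinogen-like gene FGL1 rose by 0.16 and 0.66, opposite to the fibrinogen chains, and its difference between the times was 0.50 (adjusted p = 9.42e-06 from limma).

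Prothrombin, factor X and protein C depend on vitamin K for carboxylation of their glutamate residues, and furin-like proteases cut their propeptides. Of 6 genes for the vitamin K cycle, processing and export, 2 were higher and 2 lower at each time. Over all tested genes, 29.1% were higher and 31.0% lower at 12 h, and 33.0% and 31.7% at 24 h. FURIN rose from 48.9 FPKM ± 1.9 to 89.1 ± 6.1 at 12 h and 82.5 ± 1.6 at 24 h, log2 fold changes of 0.86 and 0.75 (adjusted p = 1.84e-07 and 3.33e-07 from limma). MCFD2, which with LMAN1 exports factor V from the endoplasmic reticulum, rose by 0.17 and 0.26, while LMAN1 (log2 fold changes of -0.47 and -0.24) and VKORC1, the vitamin K reductase (-0.29 and -0.27), fell, all named after their values were seen. For GGCX, the carboxylase itself, no change passed the test (0.06 at 12 h, 95% interval -0.042 to 0.16, and 0.08 at 24 h, 95% interval -0.023 to 0.18).

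**Figure D3:**
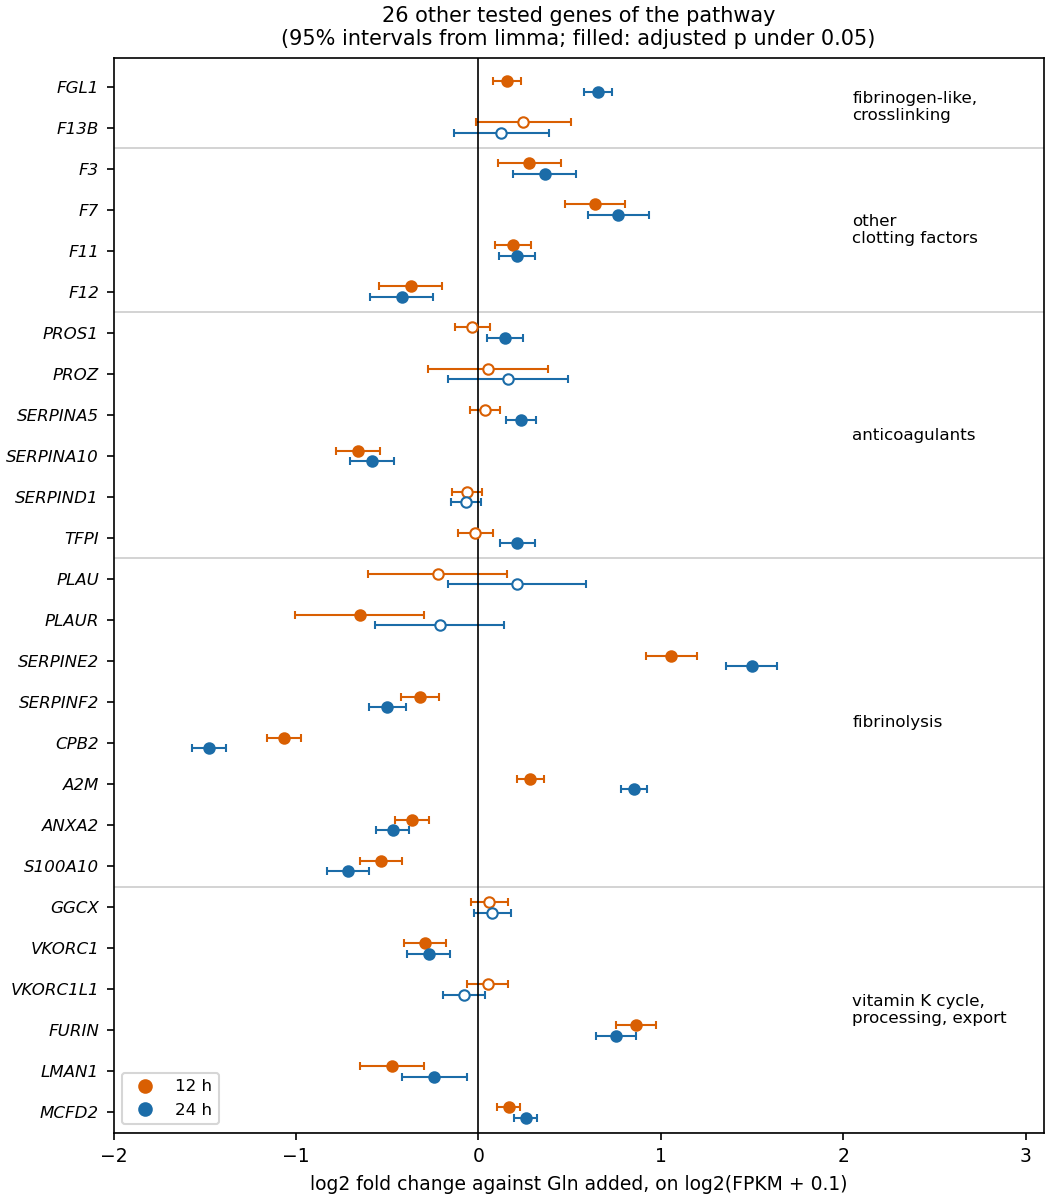
Log2 fold changes against Gln added (x axis) of 26 other tested genes of clotting and fibrinolysis (y axis, by list) at 12 h and 24 h, with 95% intervals from limma. Filled points passed an adjusted p of 0.05. Of the genes plotted, SERPINE2 had the largest rise at both times (1.06, then 1.498) and CPB2 the largest fall (-1.07, then -1.48).

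Of 15 genes of other proteins that hepatocytes secrete into plasma, 2 were higher and 9 lower at both 12 h and 24 h, with a median log2 fold change of -0.19 and -0.20. Of all tested genes, 29.1% were higher and 31.0% lower at 12 h, and 33.0% and 31.7% at 24 h. Among the acute-phase proteins in this list, SERPINA3 rose (log2 fold changes of 0.981 after 12 h and 1.91 after 24 h) and HP, haptoglobin, fell (-1.39 and -1.31). HPX (-0.45 and -0.68) and SERPINA1 (-0.17 and -0.15), also acute-phase proteins, were lower at both times. CP was lower at 12 h only (-0.53), and ORM1 was not called at either time (0.36 and 0.38). All of these were named after their values were seen. For ALB, albumin, the log2 fold change was -0.19 and -0.20. Of 10 tested genes on a list of liver-cell factors and signaling, 7 were higher and 1 lower at each time, beside the same shares of all tested genes. The lower one at both times was CEBPA (-0.29 and -0.61). The related CEBPB, 1 of the 7 higher at each time, rose by 1.44 and 1.48, names given after their values were seen.

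Genes whose levels followed these members most closely over the 9 libraries were sought among 7288 other genes that averaged 5 FPKM or more, as a description in which all genes share the libraries and their 3 groups. For the mean profile of FGA, FGB and FGG these were PSMD1 and PARP1 (Pearson r = 0.998 each), then CYP51A1, DYNLL1 and HMGCS1 (r = 0.997 each). PSMD1 encodes a proteasome subunit, PARP1 a poly(ADP-ribose) polymerase, DYNLL1 a dynein light chain, and CYP51A1 and HMGCS1 enzymes of cholesterol synthesis. F2 was followed most closely by LTBP3 (r = 0.981) and ZMYND8 (r = 0.9805), and SERPINC1 by SLC5A6 (r = 0.976) and CNTROB (r = 0.966). For F10 they were ABCF3 (r = 0.969) and IL17RE (r = 0.962). The closest profiles were less alike for PROC (PIGBOS1, r = 0.953, and MRPL10, r = 0.917), PLG (CLK4, r = 0.947, and KCTD10, r = 0.911) and F5 (HDLBP, r = 0.938, and H2BC12, r = 0.927). The profile of PLG rested on 5 to 19 fragments per library, at levels near the pseudocount of 0.1 FPKM, so its closest genes are uncertain.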

How the data were processed

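RNA-seq was analysed for 9 HepG2 libraries in 3 groups of 3, named from the labels. The authors aligned reads to GRCh38 with STAR and tested genes with DESeq2, according to the methods. The submitters' processing notes also name HTSeq and R 3.2.0. The library kit differs between labels and methods, so strandedness is uncertain. The authors deposited FPKM per gene, with no further scaling between libraries stated. The whole fragments behind the FPKM were recovered from their steps (99.99% of the solved totals).

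Differential expression was tested with limma 3.58.1 in R 4.3.3 (lmFit and trended eBayes). Values were log2(FPKM + 0.1) of the 11880 genes averaging 0.5 FPKM or more, all 3 groups in 1 fit, Benjamini-Hochberg adjustment over all genes. This scale understates changes near 0.1 FPKM. The test was checked on simulated data. Ratios were compared by exact permutation. All replicate pairs differed beyond sampling noise. The members and gene lists were chosen with earlier results of these data known. Named were all members, in each comparison the 3 largest rises and falls of the other pathway genes averaging 1 FPKM or more, and the genes with the most similar profiles (5 for fibrinogen, 2 for each other member). Not every gene chosen this way is reported here. Alternatives were pseudocounts of 1 and 0.01, no filter, a minimum mean of 1 FPKM, 2 other scalings, only the groups compared, a replicate block, no trend, voom on recovered fragments, and each library left out. Figures were drawn with matplotlib 3.10.9.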

Additional observations from a re-analysis of the deposited data

Results flagged for a closer look

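For 3 of the 8 tested genes the effects at 12 h and at 24 h differed from each other by the direct test between the times, with both effects taken against the same libraries with Gln added. In the same test, 9.57% of all tested genes were higher and 10.5% lower at 24 h than at 12 h. Nothing particular to the members is read from this count. For F2 the effect at 24 h was larger by 0.17 on the log2 scale (adjusted p = 0.00782 from limma, 24 h libraries higher in 3 of 3). For FGA the decrease was smaller at 24 h, by 0.11 (adjusted p = 0.0229 from limma, higher in 3 of 3), and this call was lost under 7 of 19 alternatives. For SERPINC1 the effect at 24 h was lower, by -0.18 (adjusted p = 0.0118 from limma, lower in 3 of 3). What these differences come from was not tested.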

How the results depend on the processing

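Of 456 alternative values of the 24 fold changes of the members, 424 kept their direction and their side of the threshold, 17 lost the call, 10 gained one and 5 changed sign without being called. The 17 lost calls were those of F10 at 24 h against Gln added (10) and of FGA at 24 h against 12 h (7). The sign changed for F5 at 24 h against Gln added (-0.0093 with median-ratio scaling, and -0.0069 to 0.029 with a library left out, negative without replicate 1 (-0.0051) or 3 (-0.0031) with Gln added or replicate 2 at 24 h) and for PROC at 24 h against 12 h (-0.050 to 0.0081 with a library left out, positive without replicate 1 at 12 h). The causes were not tested.

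Of the 8 members, the 1 called higher at 12 h became 3 with FPKM rescaled to the same total and 2 with median-ratio scaling, and 1 to 3 with a library left out (3 without replicate 3 at 12 h). At 24 h the 1 higher gene became 2 with FPKM rescaled to the same total. Between 24 h and 12 h, the 2 higher genes became 1 without a filter, with median-ratio scaling, with only the groups compared in the fit or without a trend, and 1 to 3 with a library left out (1 without replicate 1 or 2 at 12 h or replicate 3 at 24 h), and the 1 lower gene became 2 with median-ratio scaling. Of the other pathway genes, the 10 called between 24 h and 12 h were 6 to 12 with a library left out. The 3 lower among them became 1 without a filter or without a trend and 5 with median-ratio scaling, and were 1 to 4 with a library left out.

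Deviations from the group means correlated between -0.14 and 0.28 for same-numbered libraries, and between -0.47 and 0.30 for differently numbered ones. With 3 libraries in each group, these values cannot exclude a pairing by replicate number. With the replicate block F5 was called at 12 h (-0.09) and no other call of a member changed. For the ratios of fibrinogen chains the replicate block left the differences unchanged (-0.08 and 0.12 for FGA to FGB at 12 h and 24 h), with a two-sided exact sign-flip p of 0.25, the smallest that 3 pairs allow. PLG was not in the main test, because its mean was under 0.5 FPKM, and it was not called without a filter. It had 5 to 19 fragments per library and a level near the pseudocount of 0.1 FPKM. The part of either in the fit without a filter was not tested.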
